A study of Saccharomyces cerevisiae with 4 samples.

Results

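The genes described here encode the proteins of the mitochondrial ribosome of budding yeast, Saccharomyces cerevisiae. They were taken by name, as the rows called MRPL, MRPS, MRP or RSM followed by a number. MRP8, whose product is not a protein of this ribosome, was left out. This gave 65 of the 7133 rows of the expression table, of which 6720 had a gene ID. The MRPL names (34 genes) belong to the large subunit, and the MRPS and RSM names (9 and 11 genes) to the small subunit. Of the 11 genes named MRP alone, MRP7, MRP20 and MRP49 belong to the large and the other 8 to the small subunit. Every one of the 65 rows carried the symbol and the position that the R64 annotation of RefSeq gives, and the annotation named the assigned subunit for 64 of them, with MRPS12 as the exception.

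All cultures were of wild-type yeast in synthetic complete medium, kept at 30 °C. The non-restricted ones (NR) had 2% glucose and the calorie-restricted ones (CR) 0.05%. Each condition had 2 libraries, labelled biological replicates A and B. RNA sequencing of total RNA gave FPKM, fragment numbers corrected for gene length and for the size of the library, so levels of different genes are compared per length. The labels name no strain beyond wild type and no time of harvest.

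A mitochondrion has its own ribosome, which in yeast makes a handful of proteins encoded in mitochondrial DNA, most of them core subunits of the respiratory chain and of ATP synthase. Nearly all of its protein parts are encoded in the nucleus, made in the cytosol and imported, and many descend from bacterial ribosomal proteins. Loss of a mitoribosomal protein commonly leaves yeast unable to respire, so that the cells live by fermenting glucose. The messages of these genes are textbook targets of Puf3, an RNA-binding protein of the Pumilio family that recognises TGTANATA (with U in place of T in the RNA) after the stop codon and is known to promote the decay of its targets in cells grown on glucose.

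A Puf3 motif was shared by nearly all of the genes. TGTANATA, searched on the sense strand in the 200 bases after the stop codon, was found for 64 of the 65 genes (98.5%), against 844 of 6002 protein-coding genes (14.1%) and 6 of 138 genes of cytosolic ribosomal proteins (4.35%). All 37 large subunit genes held it, MRP-named ones included, and so did 27 of the 28 small subunit genes. RSM22, which encodes a protein related to methyltransferases, was the exception. Of the 64 genes, 51 held 1 site, 12 held 2 and RSM19 held 3. Among the 78 sites the form TGTAAATA occurred 36 times, TGTATATA 24 times, TGTACATA 17 times and TGTAGATA once. The first site began between 8 and 139 bases after the stop codon, with a median of 51. A C stood at 1 or both of the 2 bases before the first site in 55 of 64 genes (85.9%), against 279 of 771 other genes with a motif (36.2%). A match is a description of the sequence and not evidence of binding.

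**Figure D1:**
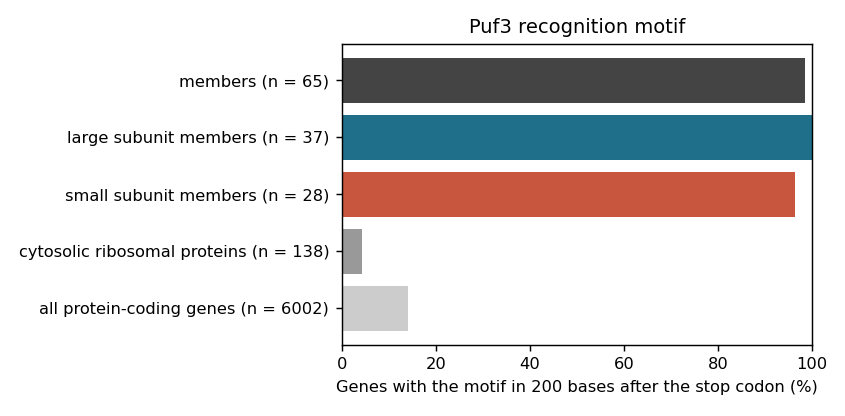
Share of genes, in percent, that hold TGTANATA on the sense strand in the 200 bases after the stop codon, with 1 bar per gene group and the number of genes searched in brackets ("members" are the 65 mitoribosomal protein genes). The bars stand at 98.5% for the 65 genes, 4.35% for cytosolic ribosomal proteins and 14.1% for all protein-coding genes.

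The sites below belong to genes whose values are described further on. Each line gives the 30 bases around the first site, 5′ to 3′ on the sense strand, read from R64 with the motif in capitals; RSM19 has a line for each of its 3 sites.
MRP17, chrXI:437038-437067, minus strand: ctacaaacacaTGTAAATAcatacatatct
RSM23, chrVII:267626-267655, minus strand: cccatttctcaTGTACATAtaaatagataa
RSM10, chrIV:540462-540491, plus strand: gatttcgtactTGTAAATAaaataggtgaa
MRPL38, chrXI:131135-131164, plus strand: aattaaccaccTGTATATAttgcttaaatt
MRPL16, chrII:146900-146929, plus strand: ccatgtatacaTGTATATAactattgaaaa
MRP7, chrXIV:621243-621272, minus strand: ttaagaatgccTGTAAATAttactattttg
MRPL39, chrXIII:251207-251236, minus strand: ttcatttatccTGTAAATAagtaatggata
MRPL4, chrXII:1015467-1015496, plus strand: accctctctccTGTAAATAtatatatatat
MRPS16, chrXVI:528881-528910, minus strand: tatgtatatgtTGTATATAtgttttacttg
RSM19, chrXIV:695022-695051, minus strand: gggatctagTGTATATAgatttctagatga
RSM19, chrXIV:694996-695025, minus strand: atgatatatcaTGTAAATAagatcaagcca
RSM19, chrXIV:694968-694997, minus strand: cagactcgggcTGTATATAtatatatatat
The first 7 of these genes rose in CR, MRPS16 fell, and MRPL4 and RSM19 did not pass the test, as described below. As 64 of the 65 genes held a site, genes of each outcome had to hold one, and the part of the site was not tested. MRPS16, the only gene of the 65 that fell, held 2.

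The libraries carried the marks of their glucose conditions. Of the genes for low-affinity glucose transport, HXT1 stood at 244 and 96.1 FPKM in the NR libraries and HXT3 at 905 and 925, and both lay between 5.73 and 12.1 FPKM in CR. ADH2, an alcohol dehydrogenase gene repressed by glucose, stood at 21.8 and 18.1 FPKM in NR and at 3160 and 2126 FPKM in CR. The median of rows with a gene ID was between 48.6 and 57.6 FPKM in the 4 libraries. The library CR B stood apart: rows without a gene ID held 87.2% of its summed FPKM, against 27.4% to 34.0% in the other libraries. Such sums are corrected for length and are not shares of fragments. The part that these rows played in the values of CR B was not tested. FPKM are shares of a library, so more of a transcript per cell and less of the other RNA cannot be told apart.

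In glucose-rich medium the 65 genes were moderately expressed and spanned a wide range. Their median was 69.6 FPKM in NR A and 66.1 in NR B, somewhat above the median of all gene rows, and together they held 0.422% and 0.408% of the FPKM of gene rows. The highest gene stood 53.2 times above the lowest in NR A and 59.5 times in NR B. The order of the genes was nearly the same in both NR libraries (Spearman's rho 0.98 over the 65 genes, a description, since genes are not replicates). The CR order followed the NR order with a rho of 0.87. Shorter genes tended to have higher levels in NR (rho -0.53 with row length), whereas the log2 fold in CR had a rho of -0.09 with length and -0.15 with the NR level.

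At the top of the range in NR stood MRPS16, a small subunit gene with a bacterial counterpart, with 1134 FPKM in NR A and 1214 in NR B. The next highest in NR was MRPL33, a large subunit gene with a bacterial counterpart, at 391 and 463 FPKM. Both NR values of MRPS16 were thus well above those of every other gene of the set. At the lower end of the mean over all libraries were MRPL4 at 38.9 and 33.2 FPKM in NR against 29.9 and 22.8 in CR, RSM22 at 42.8 and 33.4 in NR and 43.3 and 19.3 in CR, and MRPL15 at 21.3 and 26.0 in NR and 67.1 and 30.4 in CR. The ranges of these 3 genes over the 4 libraries overlapped with one another. Between conditions only RSM22 overlapped, since both CR values lay below both NR values in MRPL4 and above them in MRPL15.

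**Figure D2:**
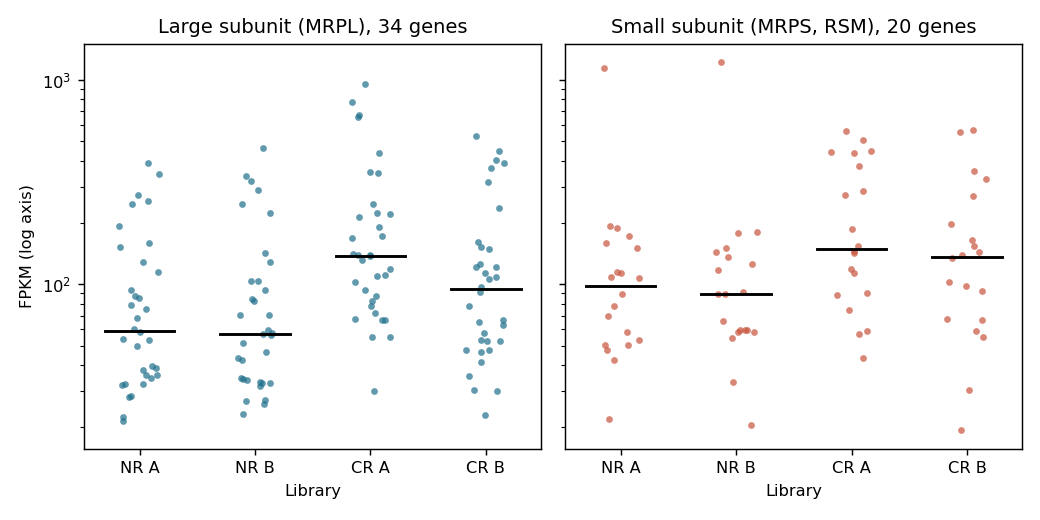
FPKM on a log axis in each library, with 1 point per gene and a bar at the median, for the 34 MRPL genes and the 20 MRPS and RSM genes. The MRPL medians stand at 59.2 and 57.2 in NR and at 137.6 and 94.2 in CR, and the isolated high point among small subunit genes in NR is MRPS16.

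In CR most of the genes stood higher. Of the 65, 27 rose (41.5%) and 1 fell (1.54%), where 17.7% of all 6355 gene rows tested rose and 13.2% fell (limma on log2(FPKM + 1), Benjamini-Hochberg adjusted p under 0.05). The log2 fold was above 0 in 57 of 65, with a median of 0.91 against 0.06 over all rows, and 23 of the 27 genes that rose did so by 2-fold or more in mean FPKM. Both CR libraries lay above both NR libraries in 52 genes, against 39.2% of all rows, and below them in 4, against 33.8%. The genes at a mean of 100 FPKM or more numbered 22 in NR and 40 in CR, and their share of gene-row FPKM was 0.783% (CR A) and 0.628% (CR B). With each library scaled to a common median, the share of all rows that rose was 15% and that fell 18.5%, the median of all rows went from 0.06 to -0.07, and 25 of the 65 genes rose with a median of 0.78. Quantile normalization gave 26 (16.4% of all rows rose and 16.9% fell), the replicate letter as a block 32 (18.1% and 15.5%) and no filter on low values 17 (11.6% and 6.9%).

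The 2 CR libraries differed in the size of the rise. Against the NR mean, the 65 genes had a median log2 difference of 1.21 for CR A and 0.56 for CR B, and CR B lay below CR A in 56 genes (86.2%), against 61.8% of all rows. In the other 9 genes CR B was at or above CR A, and of these 6 rose (MRP17, RSM10, RSM23, MRPS17, MRP49 and MRPL25) and MRPS16 fell. The NR libraries lay closer together: the replicate SD of the 65 genes on the log2 scale was 0.14 in NR and 0.49 in CR, against 0.27 and 0.46 over all rows. The number of calls turned on which libraries gave the spread. Without NR A or without NR B, where the spread came from the CR pair alone, no gene of the set passed, while 1.13% and 1.94% of all rows rose and 0.692% and 1.75% fell. Without CR B 52 of the 65 rose (25% of all rows, with 17.0% falling), and without CR A 30 rose and 7 fell (25.7% and 26.1% of all rows).

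**Figure D3:**
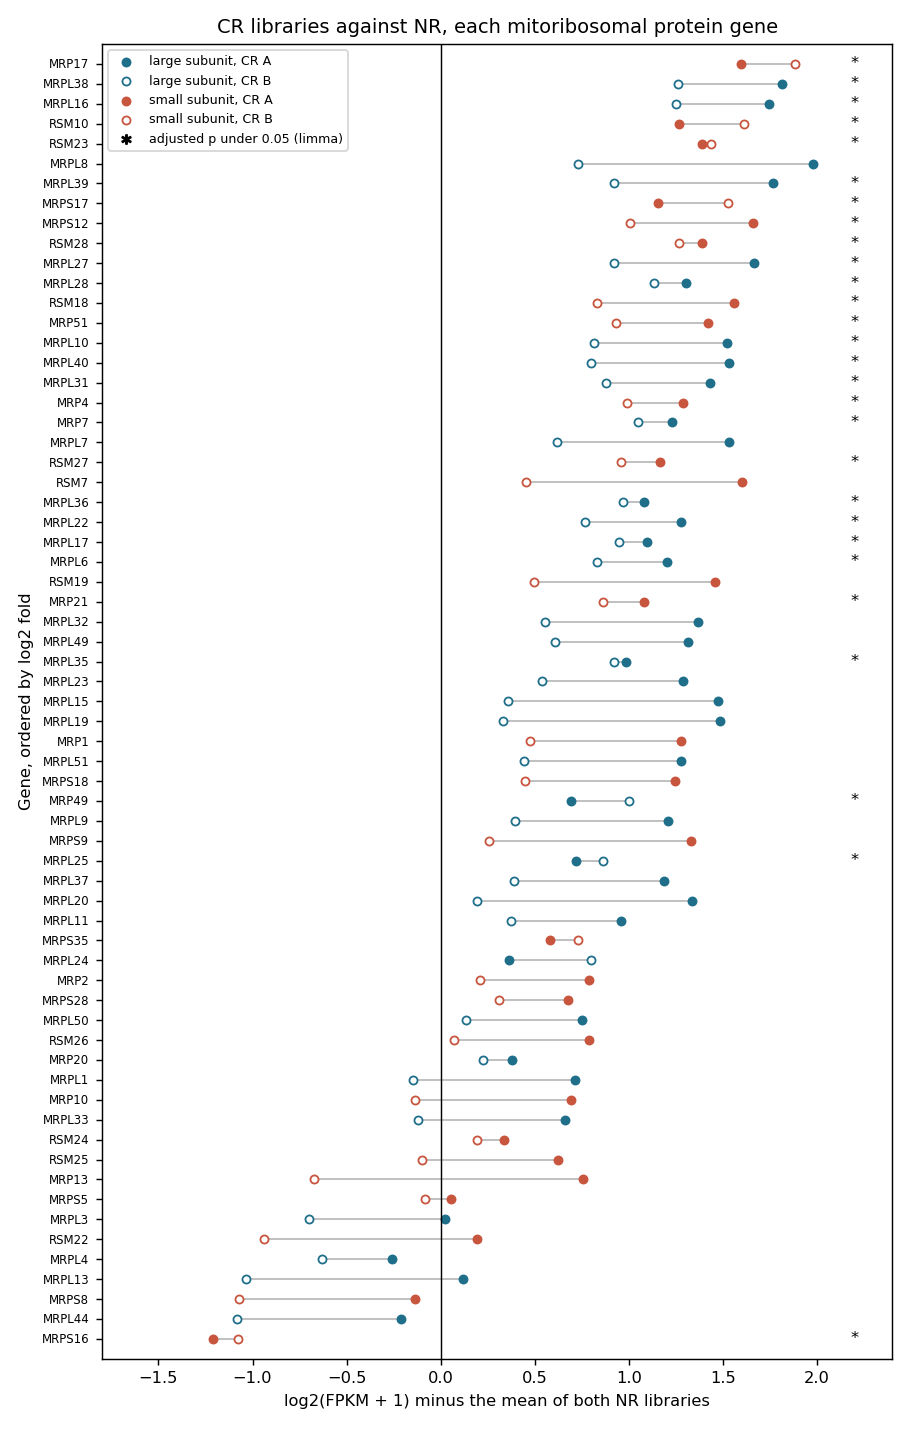
Log2(FPKM + 1) of each CR library minus the mean of both NR libraries for the 65 genes, ordered by log2 fold, with filled points for CR A, open points for CR B, colours by subunit (MRP-named genes included) and an asterisk at an adjusted p under 0.05. Most points lie to the right of 0, the filled points mostly further than the open ones, and MRPS16 at the bottom lies at -1.21 and -1.08.

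In both subunits most genes had a fold above 0. Of all tested rows, 17.7% rose and 13.2% fell. Of the 34 MRPL genes 14 rose (41.2%) and none fell, with a median log2 fold of 0.93 (1.28 in CR A and 0.61 in CR B). Of the 20 MRPS and RSM genes 7 rose (35%) and MRPS16 fell, with a median of 0.82 (1.16 in CR A and 0.45 in CR B). The fold was positive in 30 of 34 and in 16 of 20. No test was made between the subunits, since genes are not replicates of a condition. Within the small subunit, 5 of 11 RSM genes rose (45.5%) with a median of 1.03 (1.27 in CR A, 0.49 in CR B). Of the 9 MRPS genes 2 rose (22.2%, near the share of all rows) with a median of 0.65 (0.67 and 0.31). The 11 MRP-named genes all had a fold above 0, and 6 rose with a median of 0.87 (1.08 and 0.86). With MRP-named genes added, 16 of 37 large and 11 of 28 small subunit genes rose. Genes with a bacterial counterpart (17 of 40 rose, median 0.97, with 1.27 for CR A and 0.61 for CR B) and genes known from mitochondrial ribosomes alone (10 of 24 rose, median 0.82, with 1.04 and 0.46) stood close together. Without NR A or NR B none of these genes passed. Without CR B the median log2 fold was 1.28 for MRPL, 0.67 for MRPS, 1.27 for RSM and 1.08 for MRP-named genes. Without CR A it was 0.61, 0.31, 0.49 and 0.86.

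The medians of the subunits stood closest in CR A. In NR the median small subunit gene (MRPS and RSM) stood above the median large subunit gene (MRPL), at 98.1 against 59.2 FPKM in NR A and 89.4 against 57.2 in NR B. In CR the values were 149 against 137.6 FPKM in CR A and 136.4 against 94.2 in CR B. The ratio of the medians was 1.66 and 1.56 in NR and 1.08 and 1.45 in CR. With MRP-named genes added to their subunits the ratio was 1.08 and 1.12 in NR and 1.0 and 1.12 in CR, and the gap was then small in every library. The summed FPKM of the MRPS and RSM genes over that of the MRPL genes was 0.872 and 0.852 in NR and 0.611 and 0.744 in CR. MRP-named genes were left out of these sums. Without MRPS16 the same ratio was 0.542 and 0.506 in NR and 0.544 and 0.629 in CR, and no longer fell.

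Among MRPL genes the smallest adjusted p was that of MRPL16, a gene with a bacterial counterpart (chrII:146187-146885, plus strand). It stood at 49.9 and 51.3 FPKM in NR against 172 and 122 in CR, 2.90-fold higher in the mean (log2 fold 1.5 ± 0.24 SE, limma adjusted p = 0.0134). MRPL38, also with a bacterial counterpart, went from 93.5 and 103 FPKM in NR to 348 and 236 in CR (log2 fold 1.54 ± 0.26 SE, limma adjusted p = 0.0149). Its row overlaps that of YKL169C, so that without strand its reads cannot be told from those of that row. For both genes the CR libraries lay well above the NR libraries and differed more from each other than the NR libraries did. Neither passed without NR A (limma adjusted p = 0.135 and 0.147) or without NR B (0.104 and 0.105).

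MRPL28, known only from mitochondrial ribosomes, stood at 159 and 128 FPKM in NR against 354 and 315 in CR (log2 fold 1.22 ± 0.22 SE, limma adjusted p = 0.0176). MRPL35, of the same kind, stood at 28.3 and 26.7 FPKM in NR against 55.4 and 52.9 in CR (log2 fold 0.95 ± 0.19 SE, limma adjusted p = 0.0204). Its replicates were close in both conditions. MRPL39, a short gene with a bacterial counterpart, was the highest of the 65 in CR A, at 954 FPKM against 532 in CR B and 247 and 318 in NR (log2 fold 1.34 ± 0.35 SE, limma adjusted p = 0.0407). MRPL36, the counterpart of a bacterial large subunit protein, stood at 192 and 223 FPKM in NR against 438 and 405 in CR (log2 fold 1.02 ± 0.21 SE, limma adjusted p = 0.0235). In these 4 genes no NR value reached a CR value. None of them passed without NR A or without NR B.

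MRP7 and MRP20 are both counterparts of bacterial large subunit proteins: the first lies near the site where tRNAs bind and the second at the exit of the peptide tunnel. MRP7 stood at 112 and 103 FPKM in NR against 252 and 223 in CR (log2 fold 1.14 ± 0.20 SE, limma adjusted p = 0.0167). MRP20 stood at 141 and 148 FPKM in NR against 188 and 169 in CR (log2 fold 0.30 ± 0.20 SE, limma adjusted p = 0.28). Both CR values of MRP20 lay above both NR values, though the difference did not pass the test. MRPL33, the second highest gene in NR, had 673 and 392 FPKM in CR, one value above and one within the range of its NR values (log2 fold 0.27 ± 0.33 SE, limma adjusted p = 0.55), and MRPL15 did not pass either (log2 fold 0.91 ± 0.40 SE, limma adjusted p = 0.14). Without CR A the fold of MRPL33 was -0.12, and without CR B both MRPL33 and MRPL15 passed, at 0.66 and 1.47. The call of MRP7 was lost without NR A or NR B (limma adjusted p = 0.165 and 0.164).

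The smallest adjusted p of the 65 belonged to a small subunit gene, MRP17, the counterpart of a bacterial small subunit protein (chrXI:437097-437492, minus strand). It stood at 29.7 and 33.4 FPKM in NR against 97.3 and 119 in CR, 3.43-fold higher (log2 fold 1.74 ± 0.21 SE, limma adjusted p = 0.00721). RSM23, the yeast relative of the mammalian mitoribosomal protein DAP3, stood at 21.9 and 20.4 FPKM in NR against 57.1 and 58.9 in CR (log2 fold 1.41 ± 0.19 SE, limma adjusted p = 0.00929). RSM10, with a bacterial counterpart, stood at 192 and 178 FPKM in NR against 447 and 567 in CR, where it was the highest of the 65 genes in CR B (log2 fold 1.44 ± 0.23 SE, limma adjusted p = 0.0133). In MRP17, RSM23 and RSM10 the rise was as large in CR B as in CR A or larger. Without NR A the adjusted p was 0.103 for MRP17, 0.116 for RSM23 and 0.138 for RSM10, and without NR B it was 0.0669, 0.0975 and 0.128.

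MRPS17, with a bacterial counterpart, stood at 47.5 and 58.3 FPKM in NR against 118 and 154 in CR (log2 fold 1.34 ± 0.24 SE, limma adjusted p = 0.0163). RSM28, known from mitochondrial ribosomes alone, stood at 50.5 and 59.6 FPKM in NR against 145 and 133 in CR (log2 fold 1.33 ± 0.20 SE, limma adjusted p = 0.0121). MRPS12, whose product lies at the decoding centre, stood at 172 and 181 FPKM in NR against 559 and 356 in CR (log2 fold 1.33 ± 0.28 SE, limma adjusted p = 0.0244). MRPS17 and RSM28 started from similar levels and MRPS12 from a higher one. MRP51, with a bacterial counterpart, stood at 77.7 and 81.8 FPKM in NR against 215 and 153 in CR (log2 fold 1.18 ± 0.24 SE, limma adjusted p = 0.0224). MRP1, known from mitochondrial ribosomes alone, stood at 45.1 and 42.8 FPKM in NR against 108 and 61.4 in CR (log2 fold 0.87 ± 0.31 SE, limma adjusted p = 0.084), and MRPS28, with a bacterial counterpart, stood at 115 and 117 in NR and at 186 and 144 in CR (log2 fold 0.49 ± 0.22 SE, limma adjusted p = 0.14). For both genes the groups did not overlap and the test was not passed; without CR B both passed, at log2 folds of 1.28 and 0.67. The calls of MRPS17, RSM28, MRPS12 and MRP51 were lost without NR A or NR B.

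The other genes that rose were MRPL27, MRPL10, MRPL40, MRPL31, MRPL22, MRPL17, MRPL6, MRPL25, RSM18, RSM27, MRP4, MRP21 and MRP49, with log2 folds between 0.79 (MRPL25) and 1.29 (MRPL27). MRPL8 shows how the CR libraries can part: it stood at 36.0 and 32.9 FPKM in NR, at 138 in CR A and at 57.7 in CR B, and did not pass (log2 fold 1.35 ± 0.43 SE, limma adjusted p = 0.065). It was singled out after its values were seen. Of the 6 genes whose rows overlap another row (MRP4, MRPL9, MRPL19, MRPL38, MRPL51 and RSM7), MRP4 and MRPL38 rose.

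MRPS16 went the other way. From the highest NR level of the set, 1134 and 1214 FPKM, it stood at 506 and 555 FPKM in CR, where it ranked 6 of 65 in CR A and 2 in CR B (log2 fold -1.14 ± 0.23 SE, limma adjusted p = 0.0211). Its CR replicates were close, and it was lower than NR by 1.21 on the log2 scale in CR A and by 1.08 in CR B. It also passed without CR A and without CR B, but not without NR A or NR B (limma adjusted p = 0.194 and 0.196). Another 7 genes had a fold below 0 that did not pass: MRPL44, MRPS8, MRPL13, MRPL4, RSM22, MRPL3 and MRPS5, with log2 folds from -0.65 to -0.01. Of these, 5 passed as lower without CR A, as did MRP13 (log2 fold -0.68): MRPL44 at -1.08, MRPS8 at -1.07, MRPL13 at -1.04, RSM22 at -0.94 and MRPL3 at -0.70. Against the NR mean, RSM22, MRPL13, MRPL3 and MRPS5 lay above 0 in CR A (0.19, 0.12, 0.02 and 0.06) and below 0 in CR B.

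**Figure D4:**
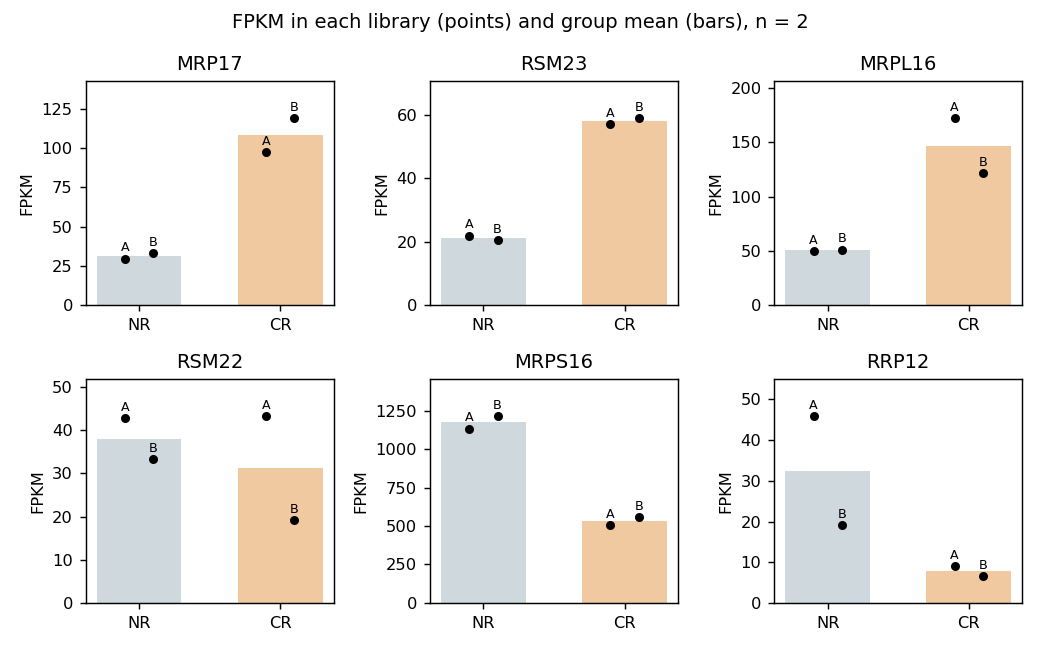
FPKM in each library (points, lettered A and B) and the mean of each condition (bars, n = 2) for MRP17, RSM23, MRPL16, RSM22, MRPS16 and RRP12. In MRP17, RSM23 and MRPL16 both CR points lie above both NR points, in MRPS16 and its neighbour RRP12 both lie below, and RSM22 overlaps.

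The start of MRPS16 faces that of RRP12, a gene for the assembly of cytosolic ribosomes, across 372 bases. This neighbour and the motifs between the genes were looked at after the value of MRPS16 was seen. RRP12 stood at 45.9 and 19.1 FPKM in NR against 8.95 and 6.62 in CR, so that both genes fell (log2 fold of RRP12 -1.82 ± 0.44 SE, limma adjusted p = 0.0343). Without NR A the fold of RRP12 was -1.21 and did not pass. The 100 bases that hold the motifs are shown on the MRPS16 strand, 5′ to 3′, from R64, with GATGAG (known as PAC) and AATTTT (an element of rapid-growth genes), on either strand, in capitals; they start in the shared region on the RRP12 side.
MRPS16 upstream region, chrXVI:529501-529600, minus strand: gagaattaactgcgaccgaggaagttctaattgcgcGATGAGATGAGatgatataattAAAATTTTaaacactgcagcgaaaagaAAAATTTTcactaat
GATGAG occurs 2 times with 1 base shared, and AAAATTTT, which reads as AATTTT on both strands, occurs 2 times. Counted to the base nearest the start codon of MRPS16, GATGAG lies 204 and 209 bases before it and AAAATTTT 158 and 185.

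Both motifs are common. In windows from 250 bases before to 50 bases after the start, GATGAG on either strand was in 11 of 65 windows (16.9%) against 20.4% of all 6001, and AATTTT in 27 (41.5%) against 51.7%. Both together were in 5 windows (MRPL32, MRPL6, MRPS16, RSM19 and RSM22; 7.69%) against 11.9% of all, and MRPS16 alone held 2 or more of each, against 1.87% of all. Outside the set, 697 tested genes held both motifs. Of these 36.0% fell and 9.04% rose, against 13.2% and 17.7% of all tested rows, with a median log2 fold of -0.67. That median was -0.53 without NR A, -0.78 without NR B, -0.78 without CR A and -0.48 without CR B. Within the set, the 5 genes with both motifs had a median of 0.96, and 1 of them rose and 1 fell. The part of the motifs was not tested. CCAAT, the motif of the Hap2/3/4/5 complex of respiratory genes, was in 41.5% of the windows against 43.3% of all, and TTACCCG, the motif of Reb1, in 13.8% against 7.08%. Outside the set, of 764 tested genes with the Puf3 motif 18.1% rose and 12.3% fell (median log2 fold 0.15), and of 4902 without it 18% rose and 13.8% fell (median 0.01). Without CR B 30.5% and 24.2% of these genes rose, without CR A 23.4% and 24.2%, without NR A 0.131% and 1.39%, and without NR B 0.654% and 2.26%. PUF3 itself stood at 19.4 and 16.6 FPKM in NR against 21.5 and 26.7 in CR (log2 fold 0.40 ± 0.22 SE, limma adjusted p = 0.22).

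Genes of mitoribosomal proteins under other names had a median fold close to that of the 65. Of 16 such rows 15 were tested, 6 rose and none fell, with a median log2 fold of 0.93 (1.21 in CR A and 0.60 in CR B). The median was 1.21 without CR B, 0.60 without CR A, and 0.84 without NR A or without NR B. YNL122C, called MRP35 in RefSeq, stood at 19.7 and 24.6 FPKM in NR against 54.8 and 64.2 in CR (log2 fold 1.39 ± 0.22 SE, limma adjusted p = 0.013). YDR115W, called MRX14, stood at 69.9 and 82.3 FPKM in NR against 217 and 169 in CR (log2 fold 1.32 ± 0.23 SE, limma adjusted p = 0.0159). VAR1, the one protein of this ribosome encoded in mitochondrial DNA, was below 1 FPKM in every library, at 0.947 and 0.706 in NR and 0.10 and 0.247 in CR, and was not tested.

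The machinery around the mitochondrial ribosome was described by 2 short lists, beside 17.7% of all rows that rose. Of 8 translation factor genes GUF1, for a GTPase of mitochondrial translation, rose, from 14 and 14.5 FPKM in NR to 25.9 and 22.7 in CR (log2 fold 0.73 ± 0.21 SE, limma adjusted p = 0.0482). MEF2, for a relative of elongation factor G, stood at 9.21 and 8.42 FPKM in NR against 17.3 and 13.9 in CR and did not pass (log2 fold 0.75 ± 0.23 SE, limma adjusted p = 0.0617). All 8 factor genes had a fold above 0, with a median of 0.45 (0.69 in CR A and 0.36 in CR B). With 1 of 8 called (12.5%), the share was not above that of all rows. Of 7 genes for assembly and ribosomal RNA modification, limma called 0, with a median of 0.18 (0.11 and 0.24). An unadjusted limma p under 0.05 was found for 1 of the 7, against 2877 of all 6355 rows. The helicase gene MRH4 stood at 16.5 and 11.7 FPKM in NR against 8.95 and 6.37 in CR (log2 fold -0.80 ± 0.29 SE, limma adjusted p = 0.091), and the GTPase gene MTG2 stood at 12.7 and 11.3 in NR and at 28.5 and 15.4 in CR (log2 fold 0.76 ± 0.33 SE, limma adjusted p = 0.14). Without CR B the median log2 fold was 0.69 for the factor genes and 0.11 for the assembly genes. Without CR A it was 0.36 and 0.24, without NR A 0.49 and 0.28, and without NR B 0.35 and 0.04. The log2 fold of GUF1 ranged from 0.64 without CR A to 0.82 without CR B. The difference between these lists was not tested.

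Most genes for proteins of the cytosolic ribosome had a fold below 0. Of 138 genes 26 fell (18.8%, against 13.2% of all rows) and 0 rose by limma (17.7% of all rows), with 62 at an unadjusted p under 0.05 in either direction and a median log2 fold of -0.93 (-0.47 in CR A and -1.39 in CR B). The number that fell was 130 without CR A (26.1% of all rows fell), 51 without CR B (17.0%), 0 without NR A (0.692%) and 4 without NR B (1.75%). Their median of the group means went from 820 FPKM in NR to 434 in CR, while that of the 65 mitoribosomal genes went from 64.7 to 121. In both sets CR B lay below CR A in most genes, 90.6% and 86.2%, against 61.8% of all rows.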

How the data were processed

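The authors deposited 1 table of FPKM with a column for each of the 4 libraries. Per the labels' protocols, RNA was extracted with a QIAGEN miRNeasy kit, fragmented, and made into libraries with an Illumina small RNA kit. The submitters' processing notes name CASAVA 1.8.2, Bowtie, Cufflinks 2.0.2 and the build sacCer2. Settings and strand use are not stated there. Positions of 5989 of 6025 gene IDs found equalled those of RefSeq R64, so sequences were read from R64. Fragments per value are unknown, so no counting intervals are given.

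CR was compared with NR by limma 3.58.1 in R 4.3.3, with an intensity trend and no covariate, on log2(FPKM + 1) over 6355 gene rows whose mean reached 1 FPKM. The two-sided p-values were adjusted by Benjamini-Hochberg, with a threshold of 0.05. The fit was tested on simulated data with the same spread in both conditions. That test does not cover the unequal spread of the NR and CR libraries. Folds on this scale understate changes of low genes. No set test was made. Members and lists were chosen with earlier results of these data known. Genes named with all values were the members of each name group with the smallest adjusted p among those that rose (4 MRPL, 4 MRPS or RSM, 2 MRP), any that fell, the 3 highest and 3 lowest, and 9 chosen for their roles; others are named as counts or as chosen after their values were seen. Bacterial counterparts were assigned from general knowledge. Alternatives were pseudocounts, filters, scaling, the replicate block, no trend, row choices and leaving out each library. Python 3.11.15, pandas 2.3.3, NumPy 2.4.6 and matplotlib 3.10.9 were used.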

Additional observations from a re-analysis of the deposited data

Results flagged for a closer look

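The row of the 15S ribosomal RNA of the mitochondrial small subunit has no gene ID and entered no comparison. It stood at 13.0 and 11.5 FPKM in NR and at 17.7 and 30.1 in CR, a CR mean of 23.9 against 12.3 in NR, and is given because it is a signal above the control level in data outside the main measurement. The large subunit counterpart, 21S, stood at 68.2 and 60.0 FPKM in NR and at 47.5 and 136 in CR, where the groups overlapped. Library CR B, in which rows without a gene ID held 87.2% of all FPKM, had the highest value of both rows, and its part in them was not tested.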

How the results depend on the processing

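Leaving out a library in turn moved the counts most. The number of the 65 genes that rose, 27 with all libraries, ranged from 0 to 52, and the number that fell, 1 with all, from 0 to 7. MRPL genes that rose ranged from 0 to 29 and MRPS and RSM genes from 0 to 13, and the lowest value was found without NR A and without NR B alike. The median log2 fold ranged from 0.61 to 1.28 for MRPL and from 0.45 to 1.16 for MRPS and RSM genes. No gene that rose passed in all 4 of these fits. With no filter on low values 17 of the 65 rose (26.2%, against 11.6% of all rows), 7 of them MRPL, and MRPL39 and MRPS12 lost their calls (limma adjusted p = 0.083 and 0.054). With MRP-named genes added, 11 small subunit genes rose in place of 7. The log2 fold of MRPL33 ranged from -0.12 (without CR A) to 0.66 (without CR B), and that of RSM22 from -0.94 (without CR A) to 0.19 (without CR B). The causes were not tested. Over the named genes and their alternatives 268 values kept direction and side of the threshold, 32 no longer passed, 5 newly passed and 2 turned.

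Whether the replicate letters pair the libraries is not known. A minus B differences of NR and CR had a correlation of 0.08 over all rows, and 2 pairs are too few to settle it. With the replicate block 32 of the 65 rose and 1 fell, with 18 MRPL and 8 MRPS or RSM genes among those that rose. Quantile normalization gave 26 that rose. With 2 libraries per condition, each p-value rests on the spread between them, which limma moderates toward the trend over all tested rows.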

Other observations

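Yeast genes often share an upstream region with a neighbour on the other strand. Of the 65 genes 38 had such a divergent neighbour, with a median gap of 337.5 bases between coding regions. Of these 38 neighbours 9 rose and 4 fell in CR, near the shares of all rows (17.7% and 13.2%), and of the 38 mitoribosomal genes themselves 14 rose. In 4 pairs both genes rose: MRP51 with the RNA helicase gene DBP1, MRPL31 with CMC1 (a gene for cytochrome oxidase assembly), RSM10 with the sodium pump gene ENA1, and MRPL28 with YDR461C-A. In 2 pairs the mitoribosomal gene rose and its neighbour fell. MRPL16 rose beside URA7, a CTP synthase gene, which stood at 143 and 79.5 FPKM in NR against 32.6 and 8.70 in CR (log2 fold -2.58 ± 0.63 SE, limma adjusted p = 0.0352). MRPS17 rose beside GCV2, a glycine cleavage gene, which stood at 71.6 and 112 FPKM in NR against 44.0 and 24.7 in CR (log2 fold -1.41 ± 0.37 SE, limma adjusted p = 0.0401). Without NR A or NR B no mitoribosomal gene of these pairs passed, nor did URA7 or GCV2.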
